A study of Mus musculus with 12 samples.

Results

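The miRNAs described here are miR-21, miR-146a, miR-146b and miR-155, small RNAs that many cell types make in response to inflammatory cytokines. They were measured in islets, the clusters of endocrine cells in the pancreas, among them the beta cells that secrete insulin. A row of the panel was taken as theirs when its name, in lower case and without species prefix and strand suffix, was one of these 4 names, and starred rows, which stand for the other strand of a hairpin, were left out. This gave 5 assays of 750 miRNA assays on the panel, and 4 names of 687. MiR-21, miR-146a and miR-155 have 1 assay each and miR-146b has 2. All 5 assays have a ratio in the authors' deposited table, which lists one for 566 of the 750 miRNA assays (75.5%).

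The donors were C57BL/6 males, 2 to 3 months old and born to dams fed through pregnancy either a low-protein diet (LP0.5, 6 samples) or a control diet (Control, 6 samples), and the comparison asks which islet miRNAs differ in the grown offspring. No genetic change or drug is given in the labels for either group. Islets of both groups were freed with collagenase, picked by hand and kept in culture overnight before RNA was taken. How many mice went into 1 sample is not given in the sources used here.

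Levels were read by TaqMan real-time PCR on 846 spots. The authors' deposited table gives each spot a single ratio, which its heading calls low-protein against control. No SD or p-value is given for any ratio, since the 12 columns of per-sample values in a second table have names that match no sample label and were not used, and whether a ratio differs from 1 by more than the spread between mice was not tested. Spots lie in 16 blocks, 8 for an A set and 8 for a B set of assays, and within each set the ratios are relative to the small RNA U6. The cycles behind each ratio, and so the abundance of each miRNA, were not analysed here. In whole islets a change in the number of cells that make a miRNA and a change in its amount per cell cannot be told apart.

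A miRNA guides a silencing complex to messenger RNAs that pair with its seed, bases 2 to 8 from the 5′ end. MiR-146a and miR-146b are induced by NF-kB and repress the signalling proteins Irak1 and Traf6 upstream of it, which makes them a brake on toll-like receptor and interleukin-1 signalling. MiR-155 is made from the Mir155hg (BIC) transcript in activated lymphocytes and macrophages and represses the cytokine signalling inhibitor Socs1. MiR-21 is made in most cell types, is induced by inflammatory signals, and represses Pdcd4. In islets and beta cell lines miR-21 and miR-146a are known to go up on exposure to inflammatory cytokines.

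The mature guide strands of mouse are printed here because the seeds show which of these miRNAs can share targets. All 4 names were matched in the RefSeq miRNA table of build GRCm38.p6. Capitals mark the seed.
miR-21a-5p (chr11:86584120-86584141, minus strand): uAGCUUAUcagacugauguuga
miR-146a-5p (chr11:43374435-43374456, minus strand): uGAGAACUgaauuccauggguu
miR-146b-5p (chr19:46342790-46342811, plus strand): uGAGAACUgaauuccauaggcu
miR-155-5p (chr16:84714143-84714165, plus strand): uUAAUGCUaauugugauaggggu
MiR-146a and miR-146b share their seed and 20 of 22 bases, and differ at G18A and U21C, with miR-146a first and positions counted from the 5′ end. Among 1738 mature mouse miRNAs in the table the seed of miR-155 stood in miR-155-5p alone, that of miR-146 in these 2, and that of miR-21 in miR-21a-5p and miR-21c. In the RefSeq gene table of the same build the Mir21a hairpin lies within the protein-coding gene Vmp1, Mir155 within the lncRNA Mir155hg and Mir146b within the lncRNA Gm36493, and no gene spans Mir146. None of the 4 hairpins has another miRNA gene within 10 kb. The assays for miR-21, miR-146a and 1 of those for miR-146b carry human names and the other miR-146b assay a rat name. Their probe sequences were not analysed here, and whether the miR-146a and miR-146b assays each read only 1 of these similar strands was not tested.

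MiR-155 was listed above 1 and stood apart from the other 3 names, which were listed close to and below 1. The direction of every ratio rests on the column heading. The study is known for naming miR-199a-3p as raised in low-protein islets, while the authors' deposited table lists it at 0.422, opposite to that under the heading. With the heading turned, every size given here would stand and every side would swap: miR-155 would be listed at 0.630, for example, and miR-21 at 1.22.

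Of the feedback pair, miR-146a has a ratio of 0.842 in the authors' deposited table. For miR-146b the authors' deposited table gives 0.811 for the A-set assay and 1.06 for the B-set assay. The A-set assays of these 2 miRNAs with 1 seed thus lay 1.04-fold apart, while the 2 assays of miR-146b itself lay 1.31-fold apart, on opposite sides of 1. Averaged on the log2 scale, the assays of miR-146b gave 0.929.

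MiR-155, the lymphocyte and macrophage miRNA, has a ratio of 1.59 in the authors' deposited table, the highest of the 5 assays. Of the 304 A-set assays with a ratio, 266 were listed lower than miR-155 and 37 higher. It therefore lay in the upper part of the set without being at its end, where the 90th percentile was 1.82.

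MiR-21, the broadly made member, has a ratio of 0.822 in the authors' deposited table. The starred assay of its hairpin reads the other strand, which is shown because it is the only second strand with a ratio among these hairpins.
miR-21a-3p (chr11:86584082-86584103, minus strand): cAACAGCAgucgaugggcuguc
The authors' deposited table puts this strand at 0.967, 1.18-fold from the guide strand and on the same side of 1, in the other assay set. The starred assay of miR-146b has no ratio there, and no starred assay of miR-146a or miR-155 was found on the panel under these names.

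**Figure D1:**
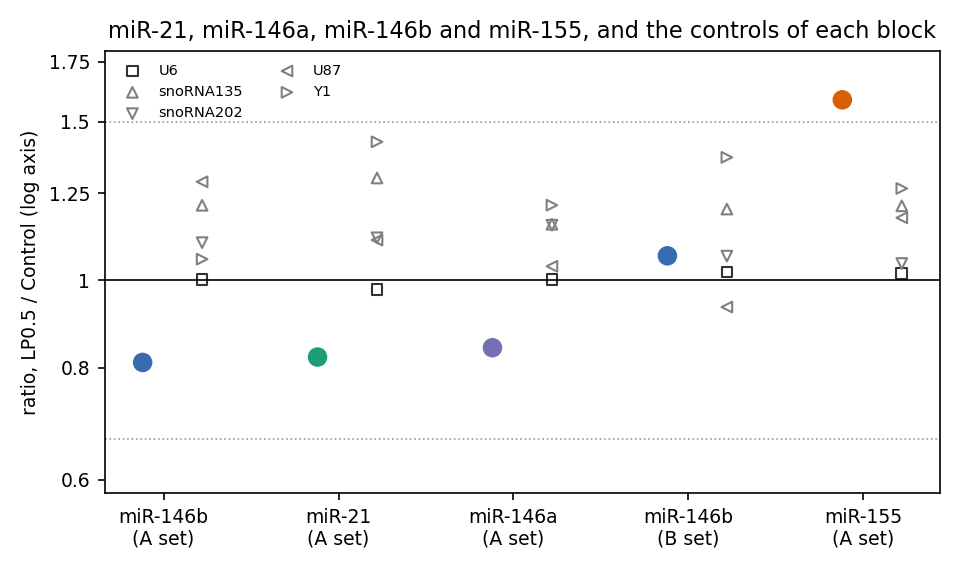
Ratio of LP0.5 over Control as deposited (log axis) for each of the 5 assays (filled circles) with the U6, snoRNA135, snoRNA202, U87 and Y1 spots of the same block (open symbols); dotted lines mark 1.5-fold from 1. The miR-155 assay at 1.59 lies above every control of its block, the 3 assays at 0.811 to 0.842 lie below every control of theirs, and the B-set assay of miR-146b at 1.06 lies among its controls.

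In order, the assays ran from miR-146b (A set) at 0.811 through miR-21 at 0.822 and miR-146a at 0.842 to miR-146b (B set) at 1.06 and miR-155 at 1.59, all from the authors' deposited table. The first 3 lay within 1.04-fold of each other, less than the 1.26-fold by which 95% of repeated control spots in the A set stayed from their own median, so their order is not resolved by this spread. MiR-155 lay 1.89-fold above miR-146a, 1.93-fold above miR-21 and 1.96-fold above the A-set assay of miR-146b. These assays are all of the A set, so a reference taken over the set cancels in the folds between them. Against the snoRNA135, snoRNA202, U87 and Y1 spots of each block they were 1.83-fold, 2.03-fold and 1.94-fold. For scale, any 2 of the 304 A-set assays lay a median of 1.5-fold apart, and 36.0% of such pairs lay farther apart than miR-155 and miR-21.

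**Figure D2:**
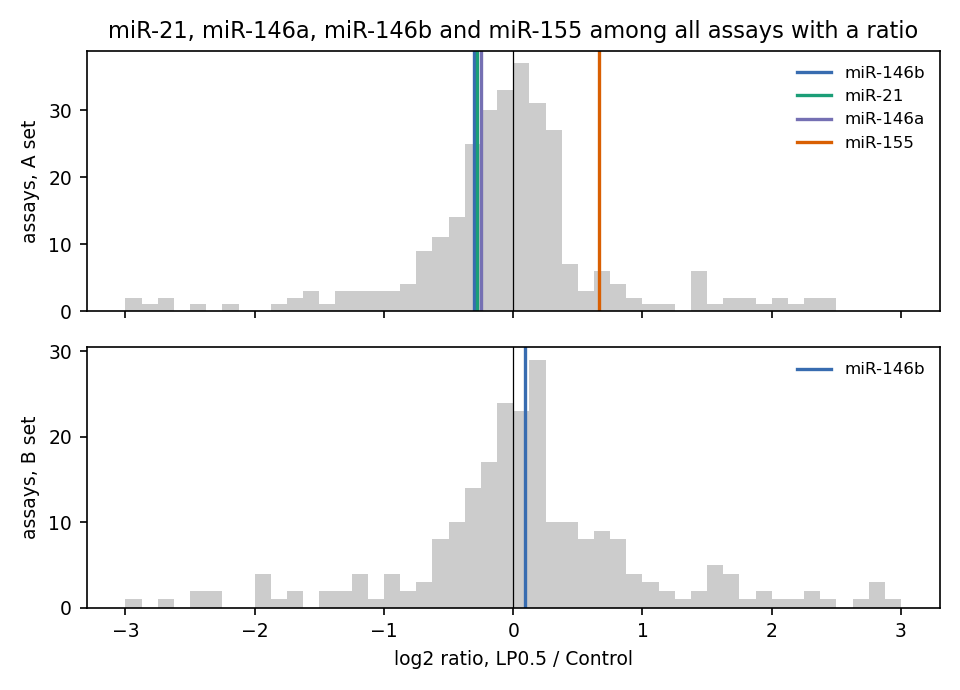
Number of miRNA assays by log2 ratio of LP0.5 over Control in the A set (304 assays, above) and the B set (262 assays, below), with vertical lines at miR-21, miR-146a, miR-146b and miR-155; 14 A-set and 27 B-set assays lie beyond 3 on either side and are not drawn. The lines of miR-21, miR-146a and miR-146b at -0.28, -0.25 and -0.30 in the A set nearly coincide, and miR-155 stands to the right at 0.67.

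Counted by name, 1 of 4 was listed above 1 and 3 below, where the shares of the 528 miRNA names with a ratio were 50.4% and 49.6%. One name, miR-155, reached 1.5-fold above 1, which is 1 of 4 against 18.8% of all names. At least 1.5-fold below 1 was 0 of 4, against 17.6% of all names. The median ratio over the 4 names was 0.884, and over all 528 names it was 1.01. With so few names these shares do not set the 4 apart from the panel.

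The choice of reference moved miR-155 across the 1.5-fold limit. Relative to the mean of the set's snoRNA135, snoRNA202, U87 and Y1 spots in place of U6, its ratio was 1.38, and 0 of 4 names were at least 1.5-fold above 1 (16.5% of all names) and 0 of 4 as far below (23.7%). Again 1 of 4 names was above 1 (37.3% of all names) and 3 below (62.7%), with a median of 0.782. Over the 9 references tried, miR-155 ran from 1.32 (snoRNA135 alone) to 1.63 (the median of all miRNA assays of the set). It was above 1 under each of the 9, and at least 1.5-fold above it under 2, U6 and that median. The 9 are not independent, since most reuse the same controls, and leaving out the outlying B-set U87 spot changes no A-set value. The largest shift applied to miR-155 was 0.26 on the log2 scale, with snoRNA135. That is less than its log2 ratio of 0.67, so these references could not turn its side. MiR-21 ran from 0.668 to 0.842, miR-146a from 0.702 to 0.862 and the A-set assay of miR-146b from 0.676 to 0.830, each below 1 under all 9 references and at least 1.5-fold below under none. The B-set assay of miR-146b ran from 0.745 with Y1 to 1.34 with U87 and was above 1 under 4 references and below under 5. The value of 1.34 rests on 1 outlying U87 spot of the B set, which the authors' deposited table puts at 0.133, and without that spot it was 1.04.

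**Figure D3:**
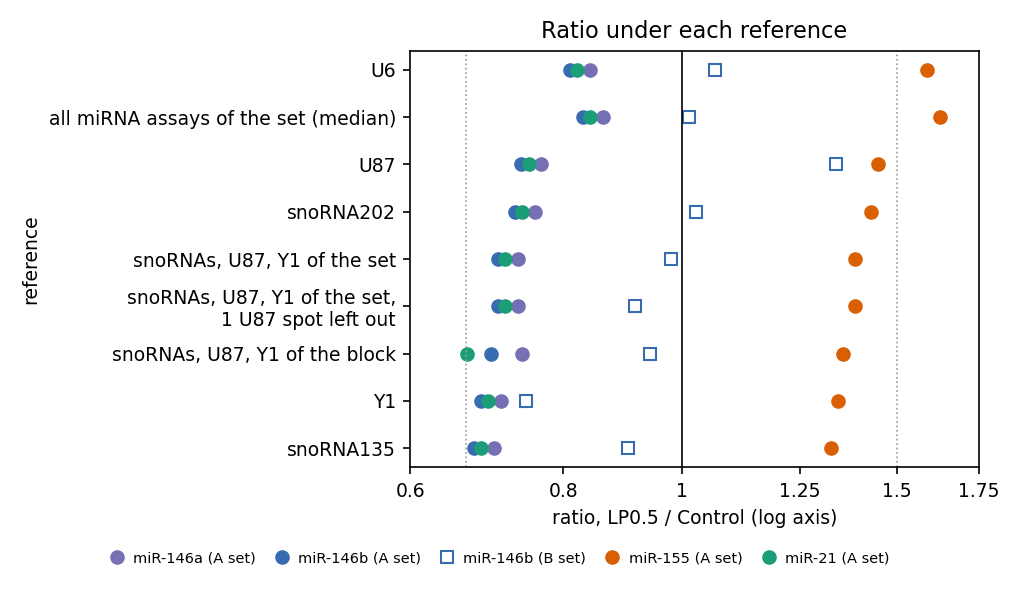
Ratio of LP0.5 over Control (log axis) for the 5 assays under each of 9 references, from U6 at the top to snoRNA135 at the bottom; circles are A-set assays, open squares the B-set assay of miR-146b, and dotted lines mark 1.5-fold from 1. MiR-155 stays to the right of 1 in every row, the other A-set assays stay to the left, and the B-set assay of miR-146b crosses 1.

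The controls give the spread that repeated spots of 1 assay can show. In the A set the 32 spots of snoRNA135, snoRNA202, U87 and Y1 ran from 0.850 to 1.56 in the authors' deposited table, both ends being snoRNA135. The miR-155 ratio lay just above that range and those of miR-21, miR-146a and the A-set assay of miR-146b just below it. These controls had a mean of 1.15, so their range is not centred on 1. Of the 304 A-set assays with a ratio, 98 were listed lower than miR-146a and 37 higher than miR-155, so lying outside this range was common. These counts, like the other shares of the panel given here, take in every assay with a ratio. In the A set they include miR-294 at 25.1 and miR-551b at -5.58 on the log2 scale. Whether such values stand for detected signal was not tested, so the shares may not be a scale for well-detected miRNAs. In the B set the range of control spots in the authors' deposited table, from 0.133 to 1.91, took in all 5 ratios. Only the B-set assay of miR-146b is of that set, so for the other assays this is a comparison across sets. The low end of the range is the outlying U87 spot. Without it the range began at 0.845, above miR-21, miR-146a and the A-set assay of miR-146b.

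Within their own blocks the picture was similar. The block of miR-155 had these controls between 1.04 and 1.27 in the authors' deposited table, and against their mean miR-155 was 1.36. The block of miR-21 had them between 1.11 and 1.43 in the authors' deposited table, and against their mean miR-21 was 0.668, the lowest value of any of these assays. In the block of miR-146a they ran from 1.04 to 1.21 in the authors' deposited table, which put miR-146a at 0.740. The plant miRNA ath-miR159a, a negative control without a mouse target, has 0.139 in the block of miR-155 and 3.01 in that of the B-set assay of miR-146b in the authors' deposited table, and it has no ratio in the other 3 blocks.

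The difference between the assays of miR-146b was typical of the panel. Among 38 miRNA names with a pair of assays, 19 pairs lay closer than miR-146b and 18 farther apart, with a median of 1.31-fold. Of the 26 pairs with an assay in each set, the B-set assay was higher in 13 and the A-set assay in 13, so the B set did not run higher across these names. The ratios of 16 of the 38 pairs were on opposite sides of 1, as for miR-146b. A difference of the size listed for miR-21 or miR-146a, 1.22-fold and 1.19-fold from 1, is smaller than the median of 1.31-fold between paired assays. MiR-155, at 1.59-fold, has only 1 assay, and 13 of the 38 pairs differed by more than that. The widest pair, of miR-673, lay 3.7e+07-fold apart, and whether both assays of each pair were detected was not tested.

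**Figure D4:**
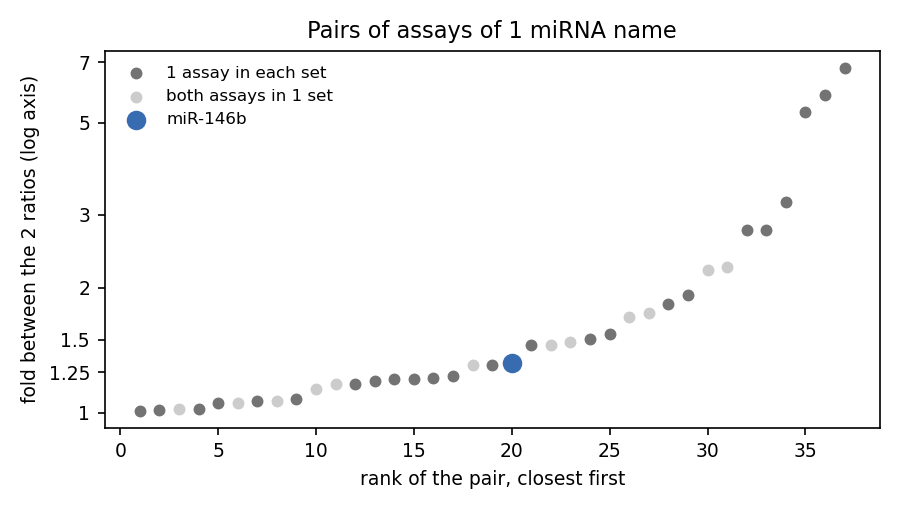
Fold between the ratios of the assays of each miRNA name with a pair of assays (log axis), ranked from the closest, with miR-146b in blue and pairs within 1 set in light grey; 1 of the 38 pairs lies beyond 10-fold and is not drawn. The miR-146b pair, 1.31-fold apart, sits in the middle of the ranking.

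Of 20 other miRNAs linked to cytokine or NF-kB signalling, all with a ratio, 13 (65%) were below 1, as miR-21 and miR-146a were, and 7 above, beside 49.6% of all names below 1. Their median was 0.898, against 1.01 for all names. All 20 lie in the A set, where the median of 304 assays was 0.976 and 159 of them were below 1. The values for all names pool both sets. With the snoRNA135, snoRNA202, U87 and Y1 reference 16 of the 20 (80%) were below and 4 above, beside 62.7% of all names below 1. The median of the list was then 0.783, against 0.899 for all names of both sets. None of the 20 was as high as miR-155. The lowest was miR-125b, a repressor of tumour necrosis factor in macrophages, with 0.543 in the authors' deposited table. MiR-9, induced by toll-like receptor signalling and known in beta cells for control of insulin exocytosis, has 0.558 in the authors' deposited table. MiR-125b and miR-9 were the only list members at least 1.5-fold from 1 relative to U6, 2 of 20 below and 0 above. Of all names 17.6% were as far below 1 and 18.8% as far above. With the snoRNA135, snoRNA202, U87 and Y1 reference 4 of 20 were as far below and 0 above, against 23.7% and 16.5% of all names. MiR-34a, which like miR-21 and miR-146a is known to go up in cytokine-treated beta cells, has 0.679 in the authors' deposited table. It was named after its value was seen and is not at an end of the list. MiR-101a has a lower ratio, 0.674, in the authors' deposited table, while 7 of the 20 were above 1. The upper end was miR-221, with 1.28 in the authors' deposited table.

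Lymphocytes and macrophages are the best-known source of miR-155. The blood cell markers, which take in red cells as well, did not share 1 side. Of 6 such miRNAs 5 have a ratio, 3 above 1 and 2 below, with a median of 1.20. In the authors' deposited table the lymphocyte miR-150 has 1.78, the myeloid miR-223 has 1.18 and 1.24, and the pan-leukocyte miR-142-3p has 1.20. The other strand of that hairpin, miR-142-5p, has 0.305 and the red cell miR-451 has 0.620 in the authors' deposited table, while miR-144 has no ratio there. The part of blood cells in the miR-155 ratio was not tested. Of the other cell markers, the 3 islet endocrine miRNAs had a median ratio of 0.918, the 3 acinar ones 0.970, the 2 endothelial ones 0.794 and the 5 of fibroblasts and stellate cells 0.459. The last value is that of miR-143, whose A-set assay has 1.11 and whose B-set assay has 0.190 in the authors' deposited table, and with the A-set assay alone the median was 1.11. The islet list ran from miR-7b at 0.523 to miR-375, the defining islet miRNA, at 1.17 by the authors' deposited table. The labelled tissue's marker thus has a ratio, as 75.5% of all miRNA assays do, and its abundance was not analysed here. The acinar list ran from miR-216a at 0.726 to miR-217 at 1.32 (assays at 1.83 and 0.950), and the endothelial list from miR-126-5p at 0.647 to miR-126-3p at 0.975, computed from the authors' deposited table with pairs of assays averaged. In the fibroblast list, computed likewise from the authors' deposited table, miR-199a-5p (0.403) and miR-199a-3p (0.422) were below 1 and miR-214 (1.41) and miR-145 (2.66) above, so this list did not share 1 side either.

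**Figure D5:**
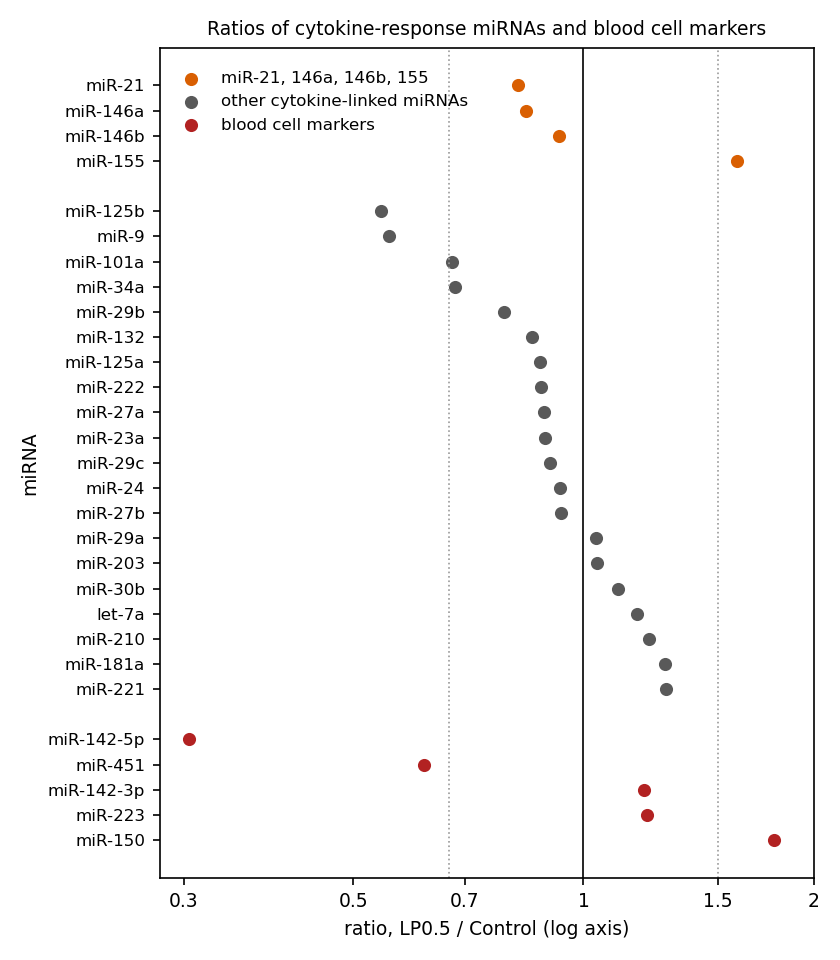
Ratio of LP0.5 over Control (log axis), by miRNA name, for miR-21, miR-146a, miR-146b and miR-155 (orange), 20 other cytokine-linked miRNAs (grey) and the 5 blood cell markers with a ratio (red); dotted lines mark 1.5-fold from 1. MiR-155 at 1.59 lies to the right of all 20 cytokine-linked miRNAs and to the left of miR-150 at 1.78.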

How the data were processed

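Per the labels' protocols, islet RNA of 6 LP0.5 and 6 Control samples was measured by TaqMan RT-PCR; limma is named in the submitters' processing notes, without role or version. The authors deposited linear ratios (fold values), 1 per spot; their averaging, detection limit and reference are not stated, and that the mean log2 U6 ratio is 0 within each set was found from the values. A second deposited table names each spot, with other, non-numeric text (assay number, miRNA name). The names of its 12 per-sample columns match no sample label, so those columns were not used, and the planned limma tests were not run; no genome build is named. Ratios were converted to log2 and averaged over assays of 1 name. All 5 assays and the members at the ends of each list, or at least 1.5-fold from 1, were to be named; miR-34a was added after its value was seen. The miRNAs and the lists (20 cytokine-linked names; markers of blood, islet endocrine, acinar, endothelial and fibroblast cells) were chosen with earlier results of these data known. The panel has other names for 2 of the cytokine-linked miRNAs (miR-101 for miR-101a, miR-125a-5p for miR-125a). Calculations were tested on simulated data. Python 3.11.15, numpy 2.4.6, pandas 2.3.3 and matplotlib 3.10.9 were used.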

Additional observations from a re-analysis of the deposited data

Results flagged for a closer look

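A negative control, outside the comparison itself, has ratios. Whether they stand for detected signal was not tested, since the cycles were not analysed here. The assay for ath-miR159a, a plant miRNA without a mouse counterpart, has a ratio at all 8 of its B-set spots, with a median of 3.01 and a range from 2.59 to 3.37 in the authors' deposited table, above the B-set assay of miR-146b at 1.06. In the A set, which holds the other assays of miR-21, miR-146a, miR-146b and miR-155, 2 of its 8 spots have a ratio, at 0.139 and 1.96 in the authors' deposited table.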

How the results depend on the processing

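No paired analysis was possible because the names of the 12 per-sample columns match no sample label, so the columns carry no usable replicate number; leaving out replicates, the filter on late cycles and the limma fits were not run for the same reason. References other than the snoRNA135, snoRNA202, U87 and Y1 mean and the set median were chosen after seeing the data. The miR-155 ratio did not turn to the other side of 1 under any setting run, but no reference shifted it by as much as its log2 ratio. The median of the fibroblast list did: it was 0.459 with the assays of miR-143 averaged, 1.11 with the A-set assay and 0.422 with the B-set assay. Values that moved by more than 0.18 on the log2 scale, the median SD of repeated control spots, were these. With the snoRNA135, snoRNA202, U87 and Y1 mean, miR-21 was 0.717, miR-146a 0.734, miR-155 1.38 and the median of the cytokine-linked list 0.783; without 1 outlying U87 spot the A-set values were unchanged, miR-146b was 0.805 and the median of the 4 names 0.769. With those controls of the same block, miR-21 was 0.668, miR-146a 0.740, miR-146b 0.811, miR-155 1.36 and the median 0.775. With snoRNA135 alone they were 0.686, 0.702, 0.782, 1.32 and 0.741, in that order, and with Y1 alone 0.694, 0.711, 0.715, 1.34 and 0.713. The A-set and B-set assays of miR-146b alone gave 0.811 and 1.06. Names at least 2-fold above 1 numbered 65 against 99 at 1.5-fold, and with the limit lowered to 5/4, 147 names were below 1 against 93. These shifts follow from the construction of each setting. The spread between samples was not analysed here, and repeated control spots measure technical spread only.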
